A study of Homo sapiens with 5 samples.

Results

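TMPRSS2, ERG and ETS2 lie on the long arm of chromosome 21 and were examined in VCaP, a human prostate cancer cell line grown in serum-containing medium with no treatment named. All intervals of 4 deposited peak lists that overlap chr21:39700000-42950000 (hg19) were taken, 832 of the 363159 intervals on the autosomes and chromosome X. They comprised 115 and 145 peaks of histone H3 lysine 27 acetylation (H3K27ac, replicates 1 and 2), and 304 and 268 peaks of H3 lysine 4 monomethylation (H3K4me1, replicates 1 and 2). Both marks were immunoprecipitated from fixed, sonicated chromatin, and the 1 input library of the study was not analysed here. The labels do not tie replicates to separate cultures, and p-values and SDs therefore measure only the spread between these libraries, which may be technical. Sequencing depth is unknown, because the lists hold positions and no read numbers or peak heights.

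ERG occupied 39.752 to 40.034 Mb, ETS2 40.177 to 40.197 Mb and TMPRSS2 42.836 to 42.903 Mb, each end known to the nearest 1 kb. ERG and TMPRSS2 are read from the minus strand, so their 5′ ends are the right-hand ones, and ETS2 is read from the plus strand. TMPRSS2 encodes an androgen-regulated serine protease of the prostate epithelial surface. ERG and ETS2 encode transcription factors of the ETS family, and ERG is normally active in endothelial and blood-forming cells. In many prostate cancers, and in VCaP, a rearrangement joins the start of TMPRSS2 to downstream exons of ERG, which places these under androgen control. H3K27ac marks active promoters and enhancers. H3K4me1 marks enhancers, active or not, and the flanks of active start sites. Neither the position of the junction in these cells nor the copy number of the interval was known here, and every distance is one on the unrearranged reference.

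The outermost start of ERG and the start of ETS2 are shown because the peaks at the 5′ ends of both gene spans differed in width. Both sequences are from RefSeq (GRCh38.p14), from 250 bases before to 50 after the start, in the direction of transcription. Capitals mark the ETS core GGAA on either strand. Entries were matched for ERG (4 starts) and ETS2 (2 starts), and the outermost is printed for each.
ERG, chr21:38660618-38660917, minus strand: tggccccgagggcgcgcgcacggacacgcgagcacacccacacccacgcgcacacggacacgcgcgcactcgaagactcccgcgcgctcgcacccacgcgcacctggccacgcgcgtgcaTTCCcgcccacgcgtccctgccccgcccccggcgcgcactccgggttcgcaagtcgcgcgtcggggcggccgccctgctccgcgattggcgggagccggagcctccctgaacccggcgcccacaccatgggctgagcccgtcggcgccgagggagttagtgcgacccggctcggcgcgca
ETS2, chr21:38804933-38805232, plus strand: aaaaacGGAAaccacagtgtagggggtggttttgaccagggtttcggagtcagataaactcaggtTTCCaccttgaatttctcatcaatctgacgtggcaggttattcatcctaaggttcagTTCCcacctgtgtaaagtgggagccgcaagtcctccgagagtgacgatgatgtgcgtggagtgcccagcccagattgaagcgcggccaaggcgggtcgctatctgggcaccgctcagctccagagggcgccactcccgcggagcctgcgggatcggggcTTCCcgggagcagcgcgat
The printed ERG sequence was 77.0% G or C with 53 CpG dinucleotides, more than or as many as in 99.5% of 35116 promoters. The printed ETS2 sequence was 58.0% G or C with 20 CpG, near the medians of 58.7% and 14. The other 3 ERG starts had 38.7 to 45.7% G or C, 4 CpG and 2 to 6 GGAA each, and the other ETS2 start 67.3%, 17 CpG and 7 GGAA. GGAA or its reverse complement TTCC occurred 1 time in the printed ERG sequence and 4 times in that of ETS2, and in 95.5% of all promoters. The androgen receptor half-site TGTTCT, searched on both strands, occurred in neither, so it overlapped no GGAA, and was held by 14.8% of promoters.

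Over the 3.25 Mb as a whole, H3K27ac formed fewer peaks than H3K4me1. H3K27ac libraries had 130 ± 21.2 peaks and H3K4me1 libraries 286 ± 25.5 (mean ± SD, n = 2 each), a ratio of 0.455. H3K27ac covered 178.6 and 171.6 kb, and H3K4me1 224.6 and 332.2 kb, a ratio of means of 0.629. The libraries of the marks did not overlap in number or in length. The whole lists differed in the same direction, with 54763 and 64845 H3K27ac and 118231 and 125320 H3K4me1 peaks on the autosomes and chromosome X. The lower number was therefore not particular to this interval. With equally many of the widest peaks from each list, the numbers here were 117.5 ± 3.54 for H3K27ac and 156 ± 12.7 for H3K4me1 (SD, n = 2 each), a ratio of 0.753. An exact permutation test over libraries (two-sided) returned p = 0.333 for either measure, which is the smallest value possible with 2 against 2, and 0.333 after Benjamini-Hochberg adjustment over both. Peaks recurred between replicates in 93.0% and 82.8% of cases for H3K27ac replicates 1 and 2, and in 91.8% and 76.1% for H3K4me1 replicates 1 and 2.

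Merging the peaks of both libraries, and keeping merged regions with at least 1 peak of each, gave 104 H3K27ac and 200 H3K4me1 replicated regions. H3K27ac regions were 32.0 per Mb here, against 18.5 on the rest of chromosome 21 and 16.0 over the autosomes and chromosome X. H3K4me1 regions were 61.5 per Mb here, against 37.2 and 28.8 in the same backgrounds. Of the H3K27ac regions, 91 of 104 (87.5%, exact 95% binomial interval 79.6 to 93.2%) overlapped an H3K4me1 region by 1 bp or more. The share was 89.9% on the rest of chromosome 21 and 73.5% over the autosomes and chromosome X, so the interval was close to the rest of its own chromosome. Of the H3K4me1 regions, 95 of 200 (47.5%, 40.4 to 54.7%) overlapped H3K27ac, against 47.1% over the autosomes and chromosome X. These intervals cover counting error over regions only.

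The marks were uneven along the interval. Of its 65 windows of 50 kb, 47 (72.3%) held replicated H3K27ac, against 40.2% of the windows of the autosomes and chromosome X. Replicated H3K4me1 was found in 57 (87.7%), against 53.8%. Of the 65, 46 (70.8%) held replicated regions of both marks, against 36.0% of 58962 windows of the autosomes and chromosome X, which include sequence gaps. H3K4me1 without H3K27ac was found in 11 windows (16.9%), against 17.9%. H3K27ac without H3K4me1 was found in 1 window, against 4.23%, and neither mark in 7 windows (10.8%), against 41.9%. The windows with the most H3K27ac were those over TMPRSS2, and high H3K4me1 occurred at both ends of the interval.

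**Figure D1:**
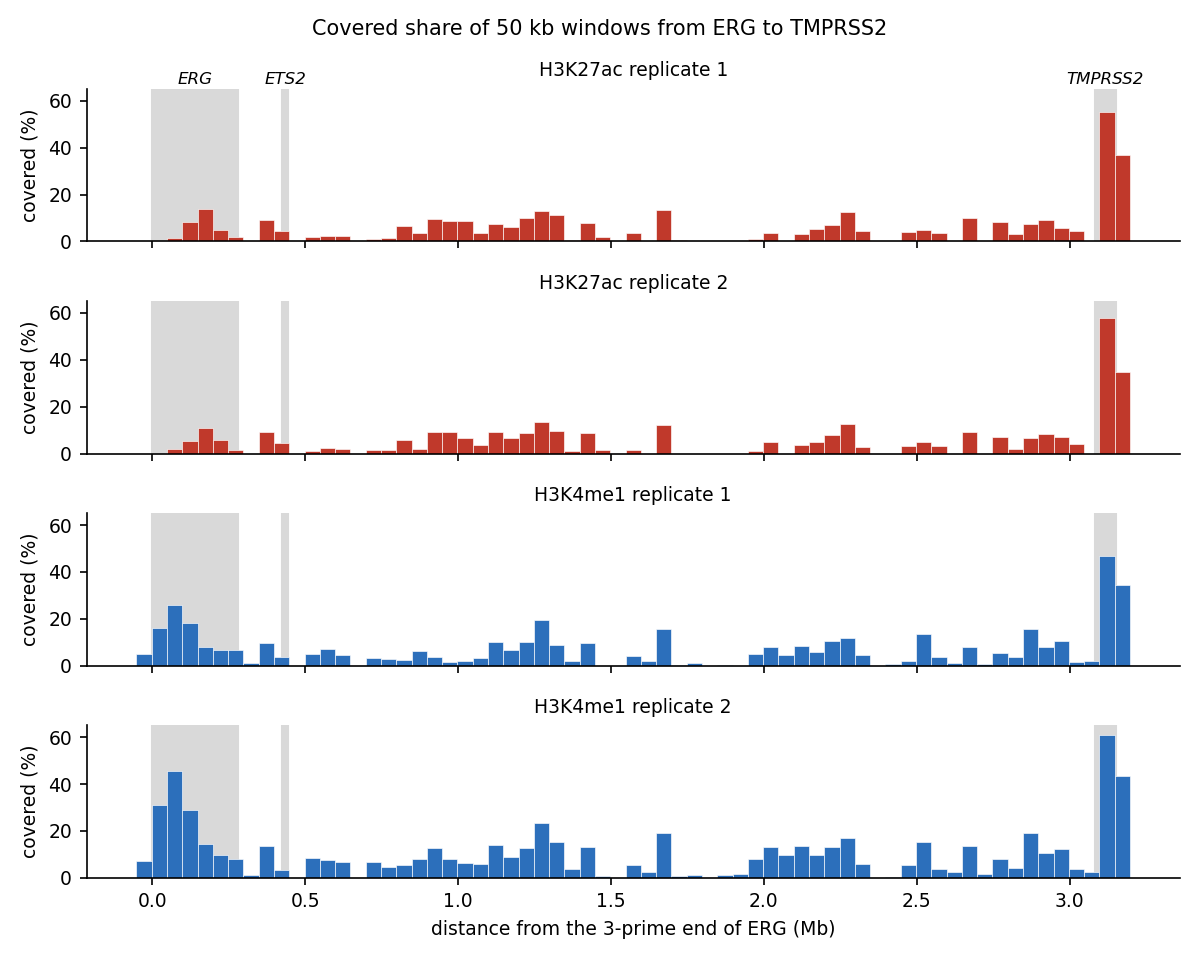
Percentage of each 50 kb window covered by peaks (vertical axis), against the distance from the 3′ end of ERG in Mb, for each of the 4 libraries. Grey bands mark ERG, ETS2 and TMPRSS2. The window from 42850001 to 42900000 was covered to 55.2 and 57.9% by H3K27ac and to 46.7 and 60.7% by H3K4me1, and H3K4me1 alone was also high over the left part of ERG.

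TMPRSS2 was densely covered by both marks. H3K27ac peaks covered 45.6 and 47.7% of its 67 kb span in replicates 1 and 2, and H3K4me1 peaks 39.0 and 50.4%. The H3K27ac values lay inside the range of the H3K4me1 values, so the marks were not separated here. Means were 46.7 ± 1.43% for H3K27ac and 44.7 ± 8.05% for H3K4me1 (SD, n = 2 each). In the stretch between ETS2 and TMPRSS2 the same libraries had 4.21 and 4.01% for H3K27ac, and 5.07 and 7.50% for H3K4me1.

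Most of the H3K27ac over TMPRSS2 lay in 2 blocks. The first, from 42890032 to 42904279 (14248 bp), spanned the 5′ end of the gene span and was called as 1 peak of 14248 bp in replicate 1. In replicate 2 it was a peak of 13344 bp and a second short one. It was the 29th widest of 47128 replicated H3K27ac regions. The second block, from 42869960 to 42882095 (12136 bp), was 1 peak in each library, of 12085 and 11927 bp. RefSeq's model of TMPRSS2 is 43.9 kb long, shorter than the 67 kb span used here, so their ends do not all coincide. Counted from the 3′ end of the span, 43.9 kb would end inside the second block, so the RefSeq start may lie there and not at 42.903 Mb. Whether the 3′ ends coincide was not determined, because the gene table is of another build (GRCh38).

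The blocks differed in how H3K4me1 lay within them. In the block at the 5′ end of the span, H3K4me1 covered 81.2 and 94.4% in replicates 1 and 2, and the longest stretch without it was 1021 and 508 bp. In the second block, inside the span, H3K4me1 covered 39.6 and 53.6%. The longest bare stretch there was 5257 bp (42875262 to 42880518) in replicate 1 and 5041 bp (42875436 to 42880476) in replicate 2, within continuous H3K27ac. Both H3K4me1 libraries thus placed this longest bare stretch within 200 bp of the same ends. Counted from the 3′ end of the span, 43.9 kb would end within this bare stretch, so the RefSeq start may lie in it. Whether it does was not determined.

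Towards the 3′ end, TMPRSS2 carried smaller H3K27ac regions and then no replicated one. Between 42853105 and 42863921 there were 5 replicated H3K27ac regions of 277 to 2301 bp, all fully covered by replicated H3K4me1. The widest H3K4me1 region of the gene, from 42855573 to 42864358 (8786 bp), lay over 4 of them and was 65.4% covered by H3K27ac. It was 1 peak of 8618 bp in H3K4me1 replicate 2 and 6 peaks of at most 2005 bp in replicate 1. Between 50 and 60 kb from the 5′ end, H3K27ac covered 0% in replicate 1 and 15.04% in replicate 2. In the last 7 kb before the 3′ end, H3K27ac covered 0% in both libraries, and H3K4me1 0 and 5.87%.

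The upstream side of TMPRSS2, from 42.903 Mb to the end of the interval, was also covered by both marks. H3K27ac covered 32.9 and 30.6%, and H3K4me1 30.9 and 39.8%. Of 7 H3K27ac regions, counting the block that crosses the 5′ end, 7 overlapped H3K4me1 (exact binomial interval 59.0 to 100%). That range includes the shares over the autosomes and chromosome X (73.5%) and on the rest of chromosome 21 (89.9%). The widest H3K27ac region wholly upstream ran from 42938265 to 42942254 (3990 bp). It was 1 peak in replicate 1 and 3 peaks of at most 2505 bp in replicate 2. It was 94.3% covered by H3K4me1. The mark did not end with the interval, since an H3K27ac domain that began at 42931370 ran to 42955544.

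Joining H3K27ac regions within 10 kb gave 59 domains in the interval, of which 34 were single regions. The TMPRSS2 domain, from 42853105 to 42916691, held 39.3 kb of H3K27ac in 11 regions and was 8th by H3K27ac length among 29399 domains. Its H3K27ac length was 38.1 kb in each library. With a joining distance of 5 kb the largest piece kept 20.8 kb and was 35th. With 20 kb the domain took in the upstream one and was 14th, with 52.7 kb. The upstream domain at 42931370 held 13.3 kb and was 300th. Joined in the same way, the TMPRSS2 H3K4me1 domain held 43.5 kb and was 7th of 42157.

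**Figure D2:**
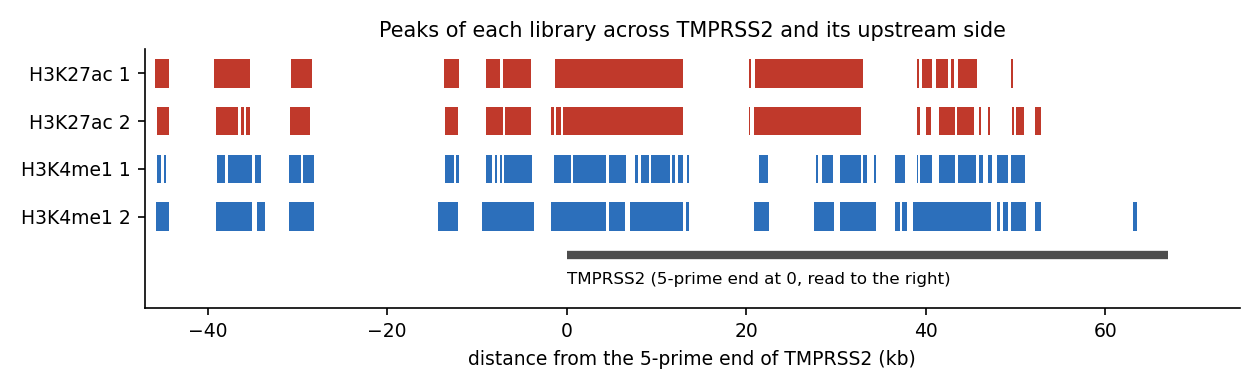
Peaks of the 4 libraries (bars, H3K27ac red, H3K4me1 blue) against the distance from the 5′ end of the TMPRSS2 span in kb, with transcription running to the right and negative values upstream. H3K27ac forms 2 blocks of 14248 and 12136 bp, and H3K4me1 leaves a gap of about 5 kb in the block inside the span.

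ERG showed a different picture on either side of its middle. In the 3′ part (39752001 to 39893000), H3K27ac peaks covered 3.42 and 2.58% in replicates 1 and 2, while H3K4me1 peaks covered 20.7 and 36.6%. In the 5′ part (39893001 to 40034000), H3K27ac covered 7.16 and 6.49%, and H3K4me1 7.95 and 11.9%. H3K27ac was therefore lower in the 3′ part, with a difference of -3.82 ± 0.121 percentage points (SD, n = 2), or -3.74 and -3.91 in the single libraries. H3K4me1 was higher in the 3′ part by 18.7 ± 8.47 points, or 12.7 and 24.7 in the single libraries. Within each mark, the values of both parts did not overlap between libraries. No test was run between the parts, since 2 libraries per mark cannot give a p below 0.5 in a paired permutation.

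**Figure D3:**
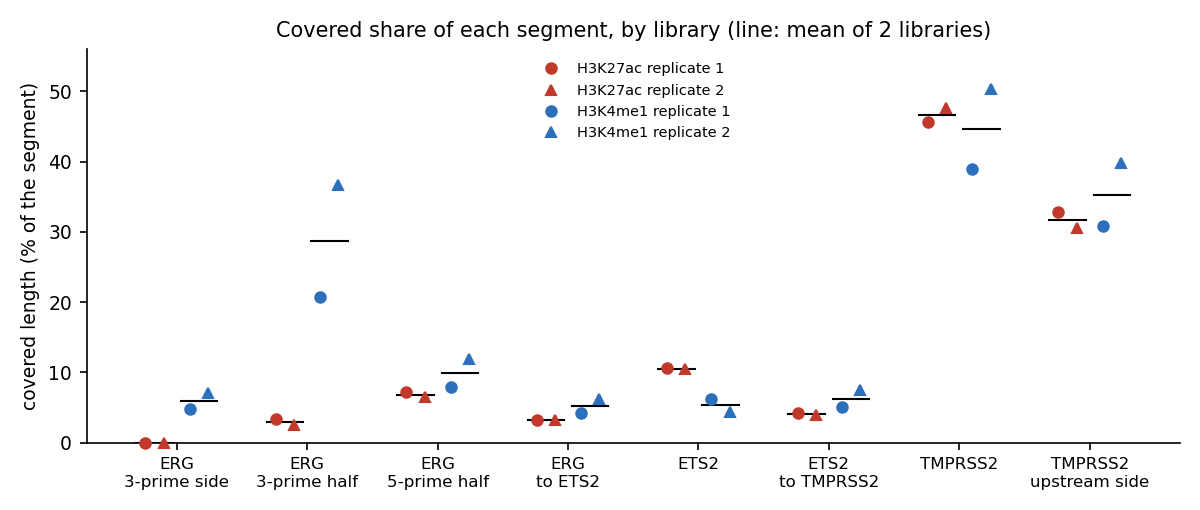
Covered length as a percentage of each of 8 segments, for each library (H3K27ac red and left, H3K4me1 blue and right; line, mean of 2 libraries). The 3′ part of ERG has 3.42 and 2.58% H3K27ac beside 20.7 and 36.6% H3K4me1, whereas both marks are high over TMPRSS2 and its upstream side.

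Few of the H3K4me1 regions in the 3′ part of ERG carried H3K27ac. Of 29 replicated H3K4me1 regions there, 3 overlapped replicated H3K27ac (10.3%, interval 2.19 to 27.4%). With the peaks of H3K27ac replicate 1 or replicate 2 alone, 5 of 29 did in each case. In the 5′ part, 8 of 12 did (66.7%, 34.9 to 90.1%), with 8 and 7 for the single libraries. Over TMPRSS2, 8 of 11 did (72.7%, 39.0 to 94.0%). The share over the autosomes and chromosome X was 47.1%, which the intervals of the 5′ part and of TMPRSS2 include. By length, 7.22% of replicated H3K4me1 lay on H3K27ac in the 3′ part, 48.8% in the 5′ part and 73.8% over TMPRSS2. This share was 45.8% over the whole interval and 47.5% between ETS2 and TMPRSS2, so the 5′ part was close to both. It was not computed over the autosomes and chromosome X. Over the 4 pairings of an H3K27ac with an H3K4me1 library, the shares were 6.48 to 10.6% in the 3′ part, 44.5 to 53.1% in the 5′ part and 70.8 to 80.2% over TMPRSS2. These ranges did not overlap, although the pairings share libraries.

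H3K4me1 in the 3′ part formed 2 groups of peaks. From 39811124 to 39878544, 21 replicated regions within 10 kb of each other held 33.7 kb of H3K4me1, the 26th longest of 42157 H3K4me1 domains. Of that length, 9.97% lay on H3K27ac. Among the 26 domains with at least as much H3K4me1 it had the lowest such share, the median being 63.3% and the highest 97.2%. From 39760203 to 39781291, 8 further regions held 12.8 kb of H3K4me1, and neither H3K27ac library had a peak there. Between the groups, H3K4me1 replicate 1 had only a peak of 202 bp, at 39786973. H3K4me1 replicate 2 had only peaks of 1459 bp at 39784751 and 235 bp at 39795131.

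The window from 39800001 to 39850000 had the greatest excess of H3K4me1 over H3K27ac of all 58962 windows. Replicated H3K27ac covered 1.37% of it and replicated H3K4me1 42.7%, a difference of 41.3 percentage points. In single libraries H3K27ac covered 1.37 and 1.96%, and H3K4me1 25.9 and 45.4%. Both pairings with H3K4me1 replicate 2 also put it 1st. With H3K4me1 replicate 1 it was 2nd beside H3K27ac replicate 1 and 3rd beside H3K27ac replicate 2. With windows moved along by 25 kb, an ERG window (39825001 to 39875000) was again 1st, with 7.86% H3K27ac and 48.1% H3K4me1. The window to the left, from 39750001, was 8th (0% H3K27ac, 25.7% H3K4me1) and that to the right, from 39850001, 47th. This measure was chosen after the values had been seen, and its places are a description of the lists.

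**Figure D4:**
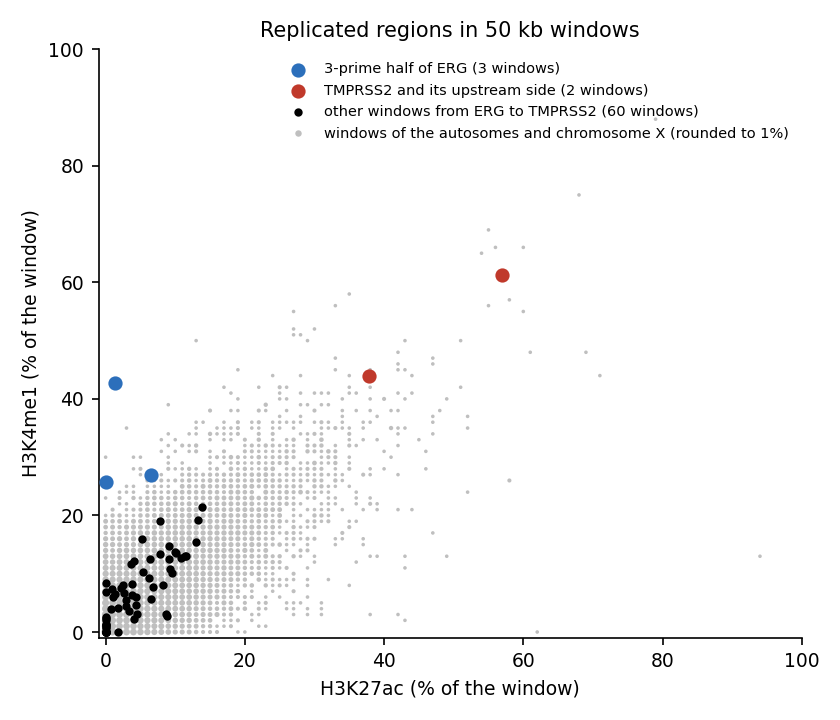
Percentage of each 50 kb window covered by replicated H3K27ac (horizontal axis) and H3K4me1 (vertical axis) regions, with grey points for all windows of the autosomes and chromosome X (rounded to whole percentages, larger where more windows share a value) and black points for the other windows of the interval. The 3 windows over the 3′ part of ERG (blue) lie at 0 to 6.49% H3K27ac, and the 2 windows that hold most of TMPRSS2 and its upstream side (red) at 56.9 and 37.8%.

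H3K27ac in the 3′ part of ERG was limited to a few short regions. It comprised 5 replicated regions, the widest from 39860021 to 39862068 (2048 bp), with peaks of 1987 bp in replicate 1 and at most 1608 bp in replicate 2. The other 4, at 39840807, 39866712, 39867300 and 39871967, were 685 bp or less. Most of this H3K27ac was clustered, and peaks covered 20.7 and 13.3% of the 20 kb from 39854001 to 39874000. In the 5′ part, the 20 kb from 39934001 to 39954000 were covered to 17.9 and 18.8%, so H3K27ac was locally similar in both parts. The widest region lay wholly inside H3K4me1, and the region at 39871967 (422 bp) overlapped none. To the left of 39840807, no replicated H3K27ac region was found down to the edge of the interval, over 140.8 kb that held 19 replicated H3K4me1 regions. H3K27ac replicate 1 had 0 peaks there, and replicate 2 had 2. Beyond the 3′ end of ERG, 52.0 kb held 0 H3K27ac peaks in both libraries, and 3 H3K4me1 peaks in each.

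In the 5′ part of ERG, H3K27ac lay with H3K4me1, but 4 of 12 replicated H3K4me1 regions overlapped no H3K27ac. There were 8 replicated H3K27ac regions, and 8 of 8 overlapped H3K4me1 (100%, 63.1 to 100%). That range includes the shares over the autosomes and chromosome X (73.5%) and on the rest of chromosome 21 (89.9%). The widest H3K27ac region ran from 39932086 to 39935202 (3117 bp). It was 1 peak of 3110 bp in replicate 1 and 2 peaks of at most 1431 bp in replicate 2. It was 83.3% covered by H3K4me1. With 3 neighbours it formed a domain to 39943540 with 5.67 kb of H3K27ac, 2494th of 29399. A further region from 39963918 to 39966136 (2219 bp) had peaks of 1935 and 2149 bp. No H3K27ac peak of either library lay between 39874001 and 39914000, which is the part around the middle of the gene.

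**Figure D5:**
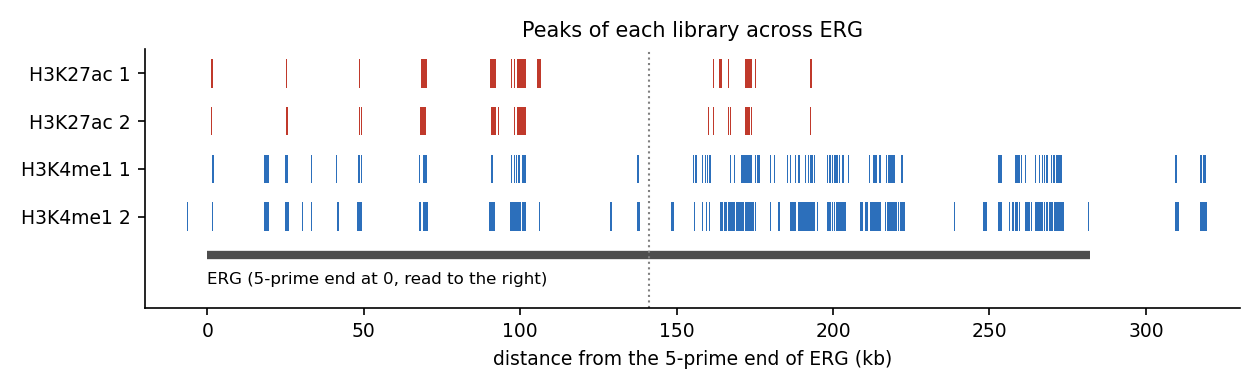
Peaks of the 4 libraries (bars, H3K27ac red, H3K4me1 blue) against the distance from the 5′ end of ERG in kb, with transcription running to the right; the dotted line is the middle of the gene. To the right of the line, the 3′ part holds 8 and 10 H3K27ac peaks in replicates 1 and 2, against 57 and 45 H3K4me1 peaks.

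The 5′ ends of the 3 gene spans differed. Within 5 kb on either side of the 5′ end of the TMPRSS2 span, H3K27ac covered 73.2 and 74.5%, and H3K4me1 69.7 and 77.9%. At ETS2, an H3K27ac peak of 2141 bp in replicate 1 and 2170 bp in replicate 2 lay over the 5′ end, and H3K4me1 covered 0% within 5 kb in both libraries. The nearest H3K4me1 peak was 5.41 and 5.39 kb inside the gene. At ERG, the nearest H3K27ac peaks were 490 and 239 bp wide and ended 1.17 and 1.13 kb inside the gene. H3K4me1 peaks of 545 and 411 bp lay beside them, 1.54 and 1.44 kb inside. Among these 3 span ends, H3K27ac was thus widest at TMPRSS2 and narrowest at ERG. For TMPRSS2 the span end need not be the RefSeq start. The ERG span is 282 kb and RefSeq's model 294.5 kb, so these distances are from the end of the span, and whether a peak lies on the printed start was not determined.

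ETS2 itself carried little else. Its 20 kb were covered by H3K27ac to 10.6 and 10.5%, all of it the region from 40176926 to 40179123 (2198 bp), which overlapped no H3K4me1. H3K4me1 covered 6.24 and 4.39%, in 2 peaks per library, of which the wider lay from 40182389 to 40183373. Between ERG and ETS2, 143 kb were covered by H3K27ac to 3.19 and 3.21%, and by H3K4me1 to 4.25 and 6.19%. The widest H3K27ac region there, from 40123985 to 40126758 (2774 bp), had 84.2% of its length under H3K4me1. The widest H3K4me1 region lay from 40115131 to 40117682 (2552 bp) and was 81.0% covered by H3K27ac.

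Between ETS2 and TMPRSS2, 2639 kb, the gene table lists 15 protein-coding genes in the order PSMG1, BRWD1, HMGN1, GET1-SH3BGR, GET1, LCA5L, SH3BGR, B3GALT5, IGSF5, PCP4, DSCAM, BACE2, FAM3B, MX2 and MX1. DSCAM encodes an adhesion molecule of neurons, and MX1 and MX2 interferon-induced antiviral GTPases. Peaks were not assigned to these genes, since the table is of another build. The stretch held 74 H3K27ac and 130 H3K4me1 replicated regions, of which 64 (86.5%) and 68 (52.3%) overlapped the other mark. Over the autosomes and chromosome X the shares were 73.5 and 47.1%, and on the rest of chromosome 21, outside the interval, 89.9 and 48.9%.

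The widest regions of both marks in that stretch lay at the same place. The widest H3K27ac region, from 42010832 to 42016397 (5566 bp), and the widest H3K4me1 region, from 42010127 to 42016125 (5999 bp), overlapped over 5294 bp. By H3K27ac length after joining, the first domains were at 41418320 to 41427722 (6.67 kb), 40890430 to 40901662 (6.22 kb) and 41003030 to 41016606 (5.69 kb), which were 1745th, 2009th and 2476th of 29399. With the domain at TMPRSS2 and the one upstream of it, these are the 5 with the most H3K27ac in the interval.

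Long parts of the stretch carried little or no mark. The widest gap without a replicated H3K27ac region ran from 41427723 to 41722640 (294.9 kb), with 1 and 0 H3K27ac peaks and 7 replicated H3K4me1 regions. The next, from 42053939 to 42213218 (159.3 kb), had 0 H3K27ac peaks in both libraries and 2 replicated H3K4me1 regions. The gap over the 3′ part of ERG, described above, was the third, although its length is cut off at the edge of the interval. The 3 widest gaps without replicated H3K4me1 lay from 42070609 to 42227044 (156.4 kb), 41502625 to 41630084 (127.5 kb) and 41182562 to 41309630 (127.1 kb). They held 2, 0 and 2 replicated H3K27ac regions. The gap over ERG thus differed from the H3K27ac gaps further right in its 19 H3K4me1 regions, against 7 and 2.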

How the data were processed

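VCaP chromatin was immunoprecipitated and sequenced as 2 H3K27ac and 2 H3K4me1 libraries beside 1 input. Named in the submitters' processing notes are MACS2 2.1.0, Bowtie 1.1.2, Trimmomatic 0.33, bcl2fastq 2.17 and the build hg19. What each did, and with which peak threshold or control, is not given in the sources used here. Peaks were deposited by the authors separately for every immunoprecipitated library, without pooling. Each list has 4 columns with chromosome, start, end and peak name. Each has its own smallest peak width (221 and 172 bp in the H3K27ac lists, 191 and 232 bp in the H3K4me1 lists), which affects peak number. Depth is unknown.

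Positions are hg19, counted from 1. Gene ends were taken to the nearest kb, and ERG was divided at its middle because exon positions in hg19 were not used here. Marker genes of other loci could not be placed for the same reason. A region that touched 2 segments counted in both. Named regions are, for each segment and mark, the widest replicated one, the peaks nearest each 5′ end, the 5 domains with the most H3K27ac and the 3 widest gaps per mark. Regions named beyond these at TMPRSS2 and ERG, the H3K4me1 domains, the bare stretches in regions over 10 kb wide, the bins along genes and the window places were chosen after their values were seen. The members and all lists were chosen with earlier results of these data known. Marks were compared by exact permutation of libraries, and shares of regions carry exact (Clopper-Pearson) 95% intervals. Interval functions were tested on simulated data. Python 3.11.15, numpy 2.4.6, scipy 1.17.1 and matplotlib 3.10.9 were used. Alternatives covered peak width and joining distance, equal numbers of widest peaks, single libraries (for region counts in ERG too), overlap, ERG divided in 3 and joining of domains.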

Additional observations from a re-analysis of the deposited data

How the results depend on the processing

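Over 15 results and 85 alternatives, 0 reversed. Only the ratios of H3K27ac to H3K4me1 and the differences between the parts of ERG have a direction that could reverse. Cover, shares, counts and places have none. The ratios of H3K27ac to H3K4me1 stayed below 1, but their test cannot pass a threshold at this size, so only their direction was compared. With equal numbers of widest peaks the ratio for peak number was 0.753, against 0.455 with all peaks, and that for length 0.749, against 0.629. Without 1 replicate the ratios were 0.402 to 0.507 and 0.527 to 0.780. Among the other results, 16 alternatives moved a value beyond the replicate SD, the 95% interval of a share or 1.5 times a count or place. The difference of H3K27ac cover between the parts of ERG, with its small spread, was -3.82 points in the report, -4.10 with a common smallest width (232 bp) and joining distance (233 bp), -4.14 with the widest peaks only (as many from each list), -3.95 with replicated regions and -4.74 with the outer parts of ERG divided in 3, always lower in the 3′ part. Equal numbers of widest peaks gave 71.1% of H3K27ac regions with H3K4me1 and 62.5% of H3K4me1 regions with H3K27ac, and the union of peaks gave 93.4% for the first. Leaving out a replicate gave 86.5 to 93.3% and 38.1 to 50%, with 93.3 and 38.1% both found without H3K4me1 replicate 1. Cover of the stretch between ETS2 and TMPRSS2 by H3K27ac was 4.40% with replicated regions, against a mean of 4.11% over the libraries. The cause of these moves was not tested. The remaining moves, of places in an order and of the number of H3K4me1 regions with H3K27ac in the 3′ part of ERG, stand beside their results. With a replicate block the ratios of H3K27ac to H3K4me1 were 0.460 for peak number and 0.656 for length, which changed no call. Deviations of same-numbered libraries correlated at -0.363 across 58962 windows, and crossed numbers, tried after seeing the data, changed 0 calls. Depth, copy number and peak height could not be taken into account.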
